A study of Mus musculus with 40 samples.

Results

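Interferon-stimulated genes are the genes that cells switch on when interferons bind their receptors. A list of 37 of them was followed through 40 libraries of mouse CD4+ T cells. The members were chosen by symbol from general knowledge of the field, with earlier results of these data known. Counts of members called are therefore description and no independent support. All 37 were found among the 55421 rows of the count table. Of these, 28 were set together as type I-like genes and 7 as interferon-induced GTPases (Irgm1, Igtp, Gbp2, Gbp3, Gbp4, Gbp6 and Gbp7). Irf1 and Ifi47 were kept outside both classes. The cells were regulatory T cells (Treg, in which Foxp3 drives a Thy1.1 reporter on the cell surface) and conventional T cells (Tconv, reporter-negative), sorted as 2000 cells per library from perfused wild-type mice. They came from blood, spleen, lymph node (LN), Peyer's patch (PP), kidney, liver, lung, pancreas, and the intraepithelial (IEL) and lamina propria (LPL) compartments of the small intestine. Treg were measured in 3 libraries and Tconv in 1 library of every source, all made from the 3' ends of mRNA. All groups shared the wild-type genotype with the reporter and the perfusion and digestion of the tissue, and no group was infected or treated with an interferon, as far as the labels say. Whether libraries came from separate animals or pools is not stated, and SD, SE and p-values therefore measure the spread between these libraries.

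Type I interferons, such as interferon-alpha and -beta, act through the receptor chains Ifnar1 and Ifnar2 and the kinases Jak1 and Tyk2. These activate Stat2, which joins Irf9 at the interferon-stimulated response element (ISRE) in promoters. Interferon-gamma, the type II interferon that T cells themselves make, acts through Ifngr1 and Ifngr2, and its signal ends at the gamma-activated site (GAS). Antiviral genes such as Isg15, Ifit1 and Mx1 are best known as type I targets. The guanylate-binding proteins (Gbp) and immunity-related GTPases (Irgm1, Igtp, Ifi47), which attack the vacuoles of intracellular microbes, are best known as interferon-gamma targets, although each interferon can induce genes of both kinds.

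Promoter stretches of 7 members show matches to the elements through which the 2 signals are known to act. They were taken from RefSeq promoter windows of 300 bases around gene starts (build GRCm38.p6), searched on both strands for the ISRE core (GAAA, any 2 bases, GAAA) and the GAS core (TTC, any 3 bases, GAA), and matches could overlap. Capitals mark the matches, and each stretch is written 5' to 3' along the strand of its gene. The first 6 come from the members of each class with the smallest p for a difference between Treg of any source that held a match, and Irf1 was added after its values were seen.
Isg15, chr4:156200855-156200916 (minus strand): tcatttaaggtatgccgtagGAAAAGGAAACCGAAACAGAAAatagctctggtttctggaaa
Rsad2, chr12:26456543-26456592 (minus strand): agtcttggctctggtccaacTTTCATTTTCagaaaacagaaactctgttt
Samhd1, chr2:157135303-157135346 (minus strand): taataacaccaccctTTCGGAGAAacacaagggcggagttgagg
Igtp, chr11:58199491-58199551 (plus strand): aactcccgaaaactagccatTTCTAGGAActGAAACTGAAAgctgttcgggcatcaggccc
Gbp2, chr3:142620584-142620633 (plus strand): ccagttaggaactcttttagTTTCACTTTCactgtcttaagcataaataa
Irgm1, chr11:48871421-48871470 (minus strand): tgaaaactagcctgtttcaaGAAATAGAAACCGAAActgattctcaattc
Irf1, chr11:53769904-53769952 (plus strand): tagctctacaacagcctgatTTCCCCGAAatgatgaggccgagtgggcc
Isg15 held 3 overlapping ISRE matches, Irgm1 held 2, and Igtp held a GAS match shortly before an ISRE match. Samhd1 and Irf1 held a GAS match and no ISRE match in the windows searched. Promoter entries were matched for 26 of the 37 members, and 15 of the 26 (57.7%) held an ISRE match, against 3.99% of 27025 genes with an entry. A GAS match stood in 7 of the 26 members (26.9%) and in 9.55% of all genes. By class, an ISRE match stood in 10 of 19 type I-like members and in 5 of 5 GTPases, and a GAS match in 4 of 19 and 2 of 5. A match describes the letters in a window and is not evidence of binding.

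Total counts ran from 12197980 to 28823493 per library, and the members together took between 0.273% (PP Tconv) and 0.604% (a liver Treg library) of them. Levels are CPM, the share of a library's counts on a common scale, adjusted with edgeR's TMM factors. Foxp3 lay at 68.2 to 309 CPM in the 30 Treg libraries and at 0.161 to 6.74 CPM in the 10 Tconv libraries, and the 4 T cell markers summed to 2991 to 5641 CPM in all 40. Several libraries stood apart. The 6 libraries whose descriptions carry the numbers 35 to 40 are LN Treg replicates 7 and 10, LN Tconv, lung Treg replicates 5 and 6 and lung Tconv. Their genes deviated from the mean of all libraries with gene length (Spearman -0.262 to -0.132 across 17909 genes, against -0.147 to 0.236 in the other 34). Kidney Treg replicate 1 held 1589 CPM of 5 kidney tubule markers, against 47.0 and 30.4 CPM in replicates 3 and 5, pancreas Treg replicate 6 held 74994 CPM of 6 acinar markers, and LPL Treg replicate 1 held 1905 CPM of 9 epithelial markers. The other libraries of these 3 sources held such markers too, and the values stand beside the results. In sorted bulk samples, fewer cells that use a gene and less RNA per cell cannot be told apart.

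Most members differed between the sources of Treg. A test of any difference among the 10 sources called 30 of the 37 members (adjusted p below 0.05, edgeR quasi-likelihood test with Benjamini-Hochberg adjustment over all genes tested), where 34.5% of all 17909 genes were called. The 30 were 22 of 28 type I-like genes, 6 of 7 GTPases, Irf1 and Ifi47. The smallest p-values fell to Ifi27l2a, a small protein of mitochondrial membranes, to the GTPase Igtp and to the transcription factor Irf1. Parp9, Rtp4, Gbp7, Lgals3bp, Mx1, Dhx58 and Oas2 did not pass. Oas2 and Mx1 were near the lower limit of the data, with 0 to 4.61 CPM and 0 to 12.1 CPM in Treg, and Oas2 had no count in 5 Treg libraries.

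**Figure D1:**
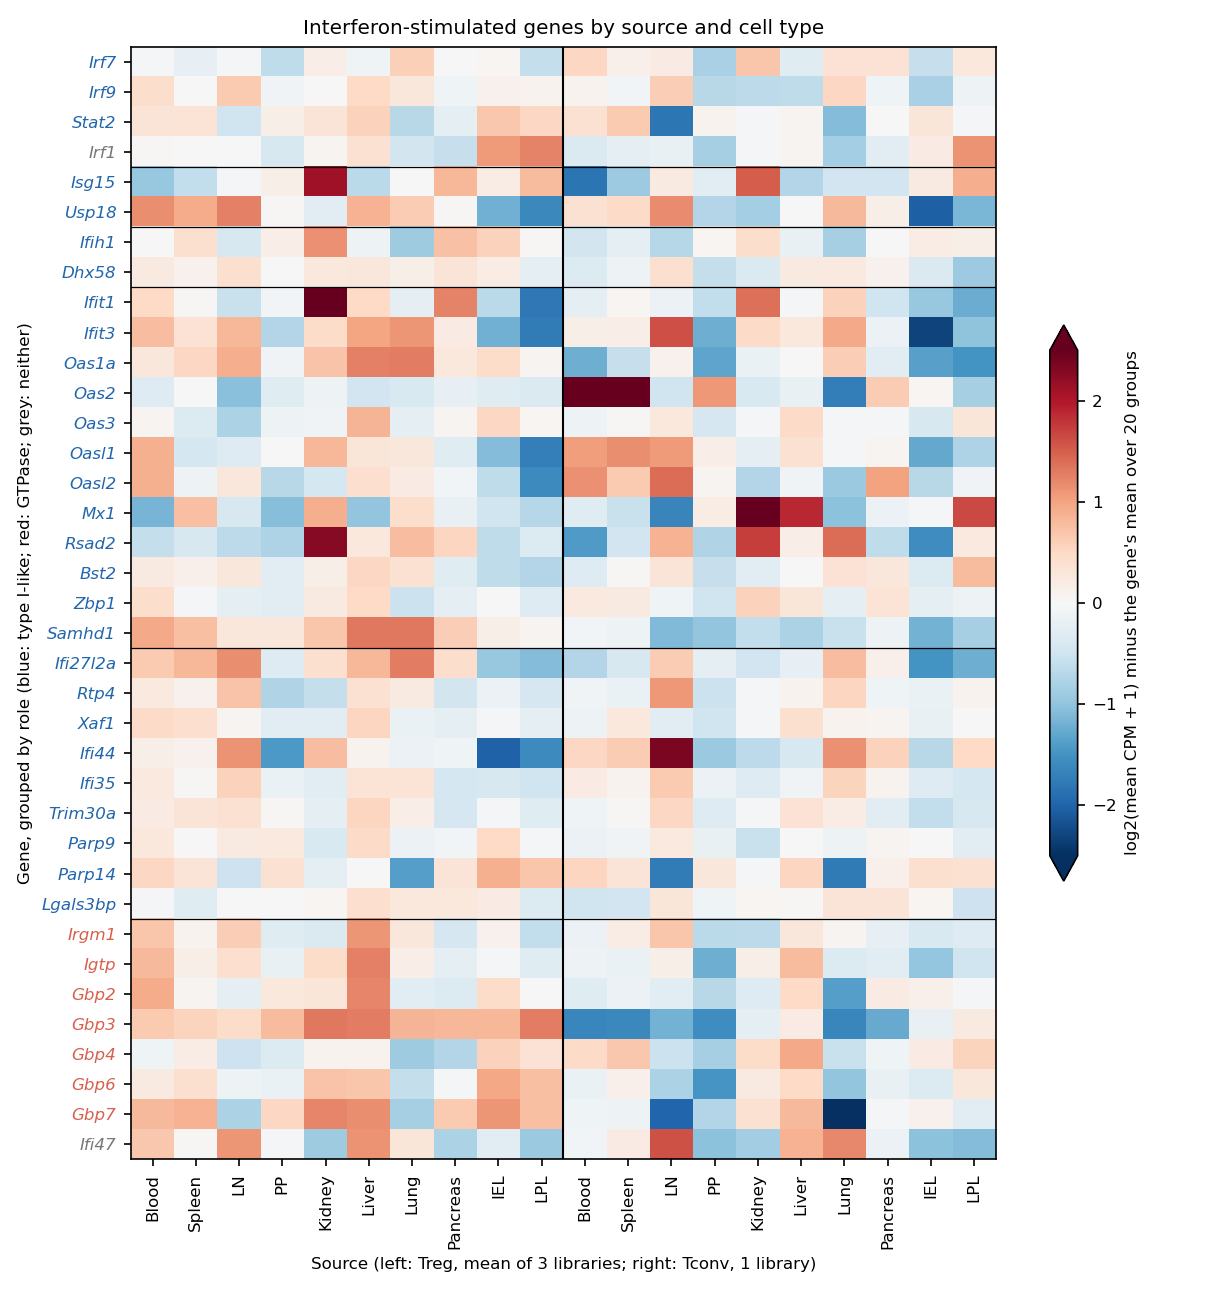
Heat map of 37 interferon-stimulated genes (rows, grouped by role) in Treg (left, mean of 3 libraries) and Tconv (right, 1 library) of 10 sources. Colour gives log2(mean CPM + 1) minus the gene's mean over the 20 groups. Isg15, Ifit1 and Rsad2 are reddest in kidney Treg, and Igtp, Gbp2 and Irgm1 in liver Treg. Irf1 is red in Treg of IEL and LPL and in Tconv of LPL, while Usp18, Ifit3 and Ifi27l2a are blue in IEL and LPL.

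The first comparison asked which members separated Treg from Tconv with the source held fixed. Gbp3, Gbp7, Samhd1 and Oas1a were higher by over 1 on the log2 scale in Treg, and 5 other members were higher by smaller steps. In all, 10 of 37 members were called, 9 higher and 1 lower in Treg, against 17.2% of 14983 genes tested (9.88% higher and 7.28% lower). The median log2 fold change was 0.17 over the 37 members, 0.48 over the 7 GTPases and 0.11 over the 28 type I-like genes, against -0.0037 over all genes. Of the GTPases 5 of 7 were higher and none lower, and of the type I-like genes 4 of 28 were higher and 1 was lower. Markers of some other cell types were lower in Treg: 4 of 5 plasmacytoid dendritic cell markers were called lower. They summed to 16.8 to 1038 CPM, median 74.7, in Treg and 53.2 to 471 CPM, median 90.7, in Tconv. Of 5 CD8 and NK cell markers 3 were called lower (14.7 to 75.0 CPM, median 32.0, in Treg and 23.6 to 282 CPM, median 87.4, in Tconv). Of 5 endothelial and stromal markers tested 2 were called lower (47.2 to 381 CPM, median 140.0, in Treg and 93.5 to 295 CPM, median 168, in Tconv), and of 9 monocyte and macrophage markers tested 1 was. The summed B and plasma cell markers had a higher median in Treg (42.0 CPM) than in Tconv (17.1 CPM), as did the epithelial markers (43.2 and 16.3 CPM). The part of these cells in the values of the members was not tested.

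Gbp3, a guanylate-binding protein, had the largest increase of the 9. It lay at 64.7 to 194 CPM, median 115 in 30 Treg libraries and at 19.6 to 73.4 CPM, median 26.4 in 10 Tconv libraries. The ranges overlapped slightly across sources, but within each of the 10 sources all 3 Treg libraries lay above the Tconv library. Its log2 fold change was 1.75 ± 0.15, adjusted p = 2.0e-10. In blood, for example, Treg held 119, 88.8 and 92.3 CPM and Tconv 19.6 CPM.

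Gbp7 was at 10.7 to 381 CPM, median 229.9 in Treg and 11.3 to 241 CPM, median 126 in Tconv, and Treg lay above Tconv in all 3 libraries of 9 sources (1.04 ± 0.29, adjusted p = 0.011). The exception was LN, where Treg held 200.3, 24.1 and 10.7 CPM and Tconv 34.0 CPM. Without the 6 libraries numbered 35 to 40 the log2 fold change of Gbp7 was 0.88. Igtp, an immunity-related GTPase, was higher in Treg in all 3 libraries of 9 sources (0.48 ± 0.09, adjusted p = 0.00029), and the exception was pancreas with 239.7, 245 and 339 CPM in Treg and 269.9 CPM in Tconv. Gbp6 rose by 0.55 ± 0.12 and Gbp2 by 0.43 ± 0.14 on the log2 scale. The call of Gbp2 was lost without the Tconv library of blood, liver, lung or PP (0.35, 0.40, 0.36 and 0.37). Gbp4 went the other way without passing (-0.29 ± 0.11, adjusted p = 0.068), with all 3 Treg libraries below Tconv in 7 of 10 sources, and Irgm1 was at 0.21 ± 0.13, adjusted p = 0.32.

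Among the antiviral effectors, Samhd1 and Oas1a rose in Treg. Samhd1, which breaks down the deoxynucleotides that viruses need, lay at 299 to 1346 CPM, median 533 in Treg and 155 to 337 CPM, median 216 in Tconv (1.25 ± 0.12, adjusted p = 1.8e-09). Only LPL Treg replicate 1, at 299 CPM, fell within the range of Tconv, and within each of the 10 sources all 3 Treg libraries lay above Tconv. Oas1a, an oligoadenylate synthetase that activates RNA decay, lay at 13.5 to 76.9 CPM, median 31.5 in Treg and 7.42 to 35.5 CPM, median 16.8 in Tconv (1.16 ± 0.18, adjusted p = 1.3e-05). The 2 ranges overlapped between sources. The other 10 effectors were not called, and Bst2, which tethers budding virus to the cell, is an example at 80.3 ± 24.9 CPM (SD, n = 30) and 83.6 ± 25.3 CPM (SD, n = 10).

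The transcription factor Irf9, the DNA-binding partner of Stat2, was slightly higher in Treg (156 to 374 CPM, median 231 against 116 to 311 CPM, median 188; 0.34 ± 0.10, adjusted p = 0.02). Its call was lost without the Tconv library of IEL (0.28) or of liver (0.27). Irf7, Irf1 and Stat2 were not called (-0.20 ± 0.12, 0.26 ± 0.10 and 0.27 ± 0.14). Isg15, the ubiquitin-like modifier, and Usp18, the protease that removes it and also shuts the type I receptor, were not called either (0.34 ± 0.21 and 0.33 ± 0.21). The RNA sensors Ifih1 (MDA5) and Dhx58 (LGP2) were at 0.32 ± 0.18 and 0.34 ± 0.13. Among the other induced genes, Ifi27l2a was higher in Treg (0.62 ± 0.14, adjusted p = 0.0011) with 55.2 to 540.3 CPM, median 268 against 64.4 to 314 CPM, median 148. Ifi44, a cytoplasmic protein, was the 1 member called lower (-1.67 ± 0.60, adjusted p = 0.0499). It held 0 to 12.3 CPM in Treg and 1.14 to 19.7 CPM in Tconv, and 33 of the 40 fits that left out 1 library lost the call, with values from -1.93 to -1.10. It was also not called without a filter on low counts (-1.69) or without the libraries numbered 35 to 40 (-1.76).

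**Figure D2:**
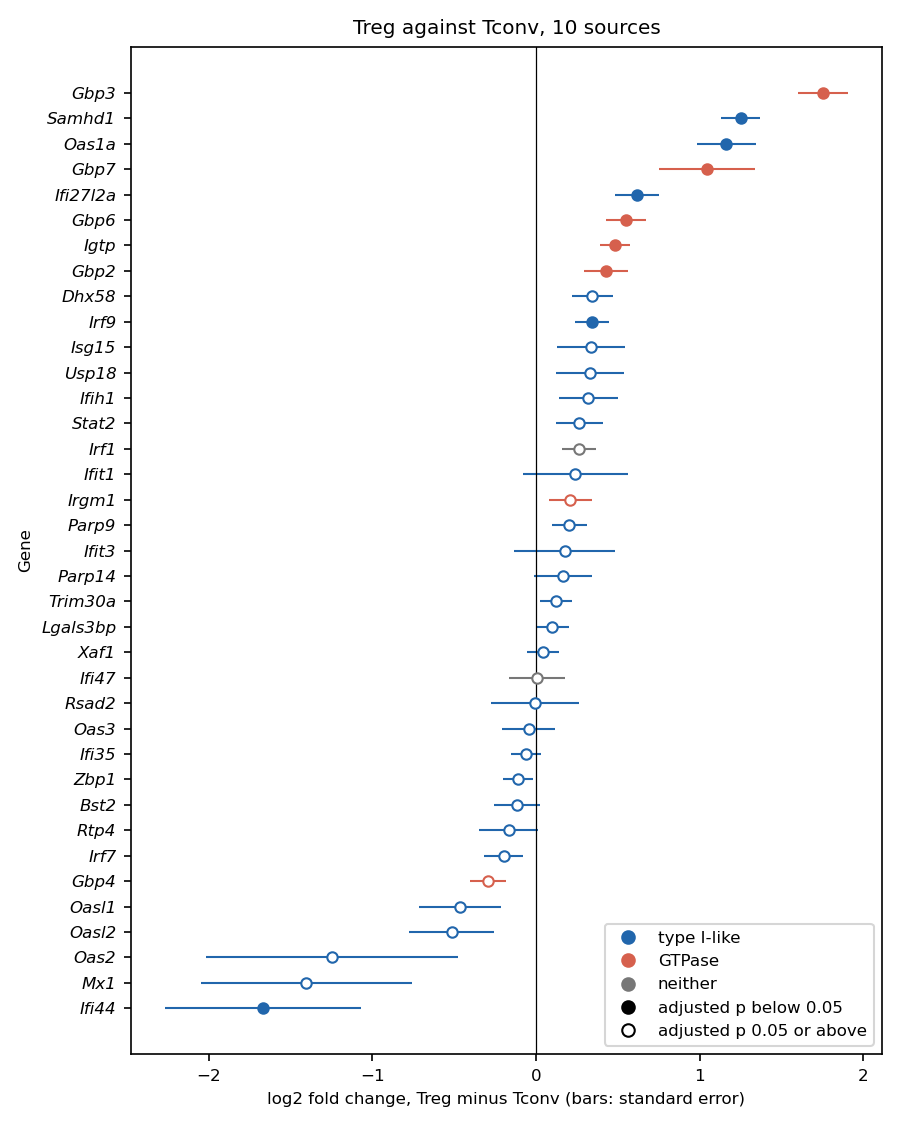
Log2 fold change of each of the 37 members between Treg and Tconv (x axis, with its standard error), ordered by size. Filled points passed an adjusted p of 0.05. Gbp3 at 1.75, Samhd1 at 1.25, Oas1a at 1.16 and Gbp7 at 1.04 lie farthest to the right, and Ifi44 at -1.67 farthest to the left of the called members.

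A split within the tissues lay between the gut wall and the solid organs. The p-values of this comparison measure the spread between libraries within sources and not between sources, so a single source can carry a call. No fit with the source as the replicate was run for it. In Treg of IEL and LPL, Irf1, Parp14, Gbp4, Gbp6 and Stat2 were higher than in Treg of kidney, liver, lung and pancreas, while Usp18, Ifit1, Ifit3, Oasl1, Oasl2, Rsad2, Bst2, Samhd1, Ifi27l2a, Ifi44, Ifi35, Irf7 and Igtp were lower. These 18 of 37 calls (5 higher, 13 lower) stand against 23.6% of all genes (13% higher and 10.6% lower). Of the 28 type I-like genes 2 were higher and 12 lower, and of the 7 GTPases 2 were higher and 1 lower. The median log2 fold change was -0.30 over the members, -0.38 over the type I-like genes and 0.0059 over the GTPases, against 0.06 over all genes. Markers of other cells differed between the same groups: the sum of 11 monocyte and macrophage markers was 0.466 to 6.87 CPM in the gut wall and 17.3 to 1527 CPM in solid organs, with 9 of 11 called lower. The sum of 9 epithelial markers was 78.1 to 1905 CPM and 11.6 to 257 CPM, with 8 of 9 called higher. Of 6 acinar markers 4 were called lower, of 5 CD8 and NK cell markers 1 was higher and 3 lower, and of 7 B and plasma cell markers 1 was higher and 3 lower. The part of these cells in the values of the members was not tested.

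Irf1, a transcription factor induced by both interferon types, was higher in every gut wall library than in every solid organ library. IEL Treg held 675, 658 and 659 CPM and LPL Treg 536, 725 and 982 CPM, while the 12 solid organ libraries lay at 169 to 440.3 CPM, median 275. The groups did not overlap, and the log2 fold change was 1.31 ± 0.14, adjusted p = 2.5e-07. LPL Tconv also stood high at 685 CPM, and IEL Tconv at 362 CPM, against 174 to 333 CPM in the solid organ Tconv. Stat2, a subunit of the type I factor, was at 95.9 to 140.2 CPM, median 114 in the gut wall and 35.1 to 136 CPM, median 81.5 in solid organs (0.62 ± 0.18, adjusted p = 0.014), and lost its call without LPL Treg replicate 2 (0.56). Irf7, the factor that amplifies type I responses, was lower (-0.44 ± 0.15, adjusted p = 0.038), a call lost without a filter on low counts and in 10 of the 30 fits without 1 library (-0.52 to -0.39).

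Usp18 was lower in the gut wall, with 16.7, 15.2 and 11.0 CPM in IEL and 13.9, 7.81 and 10.1 CPM in LPL, against 12.9 to 95.2 CPM, median 44.7 in solid organs (-1.80 ± 0.32, adjusted p = 0.00019). The groups overlapped through kidney replicate 5 and lung replicate 1 alone, at 12.9 and 15.9 CPM. Isg15 did not follow it. It lay at 38.8 to 73.3 CPM, median 54.1 in the gut wall and 17.0 to 249.9 CPM, median 40.5 in solid organs (-0.07 ± 0.29, adjusted p = 0.94). The sensors Ifih1 and Dhx58 were not called (0.10 ± 0.27 and -0.30 ± 0.18).

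Of the 12 antiviral effectors 7 were lower in the gut wall and none was higher. Samhd1 showed it without overlap, with 363, 396 and 402 CPM in IEL and 299, 373 and 431 CPM in LPL against 502 to 1346 CPM, median 624 in solid organs (-0.88 ± 0.14, adjusted p = 7.3e-05). Bst2 was at 34.8 to 66.5 CPM, median 47.1 against 45.7 to 131 CPM, median 94.6 (-0.87 ± 0.15, adjusted p = 0.00014). Ifit1 and Ifit3, which bind foreign RNA, fell further. The Ifit3 ranges overlapped. It held 3.37, 4.82 and 4.34 CPM in IEL and 3.19, 1.78 and 2.67 CPM in LPL against 0.751 to 37.1 CPM, median 17.5 in solid organs (-2.47 ± 0.50, adjusted p = 0.00074), and its change was -1.21 without the libraries numbered 35 to 40. Ifit1 fell by 2.35 ± 0.51 and Oasl1, which restrains the translation of Irf7, by 1.95 ± 0.35 on the log2 scale. Rsad2 (viperin) was at -1.54 ± 0.35. Ifit1 lay at 12.8 to 36.1 CPM in the gut wall and 16.1 to 551 CPM in solid organs. The highest values were 551 and 417 CPM in kidney replicates 3 and 5 and 288 CPM in pancreas replicate 6. Rsad2 lay at 6.84 to 11.8 CPM in the gut wall and 9.09 to 100.3 CPM in solid organs. Its gut wall range was near that of lymphoid Treg (5.60 to 11.5 CPM). Both pairs of tissue ranges overlapped. Oasl2 was at -1.33 ± 0.36 and lost its call without the libraries numbered 35 to 40 (-0.93).

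Ifi27l2a separated the 2 groups of tissues without overlap. It held 93.3, 55.2 and 134 CPM in IEL, 90.9, 73.3 and 92.5 CPM in LPL and 213 to 519.9 CPM, median 285 in solid organs, a log2 fold change of -1.77 ± 0.18, adjusted p = 1.2e-07. PP Treg held 188, 134 and 119.5 CPM, below every solid organ library. Parp14, an ADP-ribosyltransferase, moved the other way, with 199.8 to 265 CPM, median 244, against 42.2 to 211 CPM, median 111 (1.12 ± 0.25, adjusted p = 0.0016). Ifi44 had no count in 5 of the 6 gut wall libraries. Over the group it had 24 counts of 151391872, all in LPL Treg replicate 1, the library with the most epithelial marker counts, against 987 of 279033022 in the solid organs, where no library was at 0. A count of 0 allows up to 3 counts in a library, and this covers counting error only. Ifi35 was called lower (-0.44 ± 0.13) but not without IEL Treg replicate 2 (-0.40) or without the libraries numbered 35 to 40 (-0.31).

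The GTPases divided in the gut wall. Gbp4 held 308, 260.4 and 273 CPM in IEL and 214, 243 and 271 CPM in LPL against 85.8 to 257 CPM, median 138 in solid organs (0.84 ± 0.14, adjusted p = 8.5e-05). Gbp6 was at 39.2 to 57.4 CPM, median 48.6 against 15.1 to 48.2 CPM, median 34.3 (0.69 ± 0.14, adjusted p = 0.00095). Both ranges overlapped at their ends. Igtp was lower at 228 to 337 CPM, median 299 against 239.7 to 819 CPM, median 404 (-0.57 ± 0.12, adjusted p = 0.00082), and the liver libraries made up the top of the solid organ range. Gbp2 and Gbp3 lay near 0 (0.01 ± 0.15 and -0.01 ± 0.15). Gbp7 was at 0.39 ± 0.41. The Gbp4 gene overlaps Gbp8 and Gbp9 on the same strand, and Igtp overlaps Irgm2, and their values are uncertain to the extent that shared reads were split. The same holds for Irf9, which overlaps Rnf31 on its strand, and, unless strand was used in counting, for Irf7 with Phrf1, Irf1 with Gm17334 and Parp9 with Dtx3l and Gm15564 on the opposite strand.

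**Figure D3:**
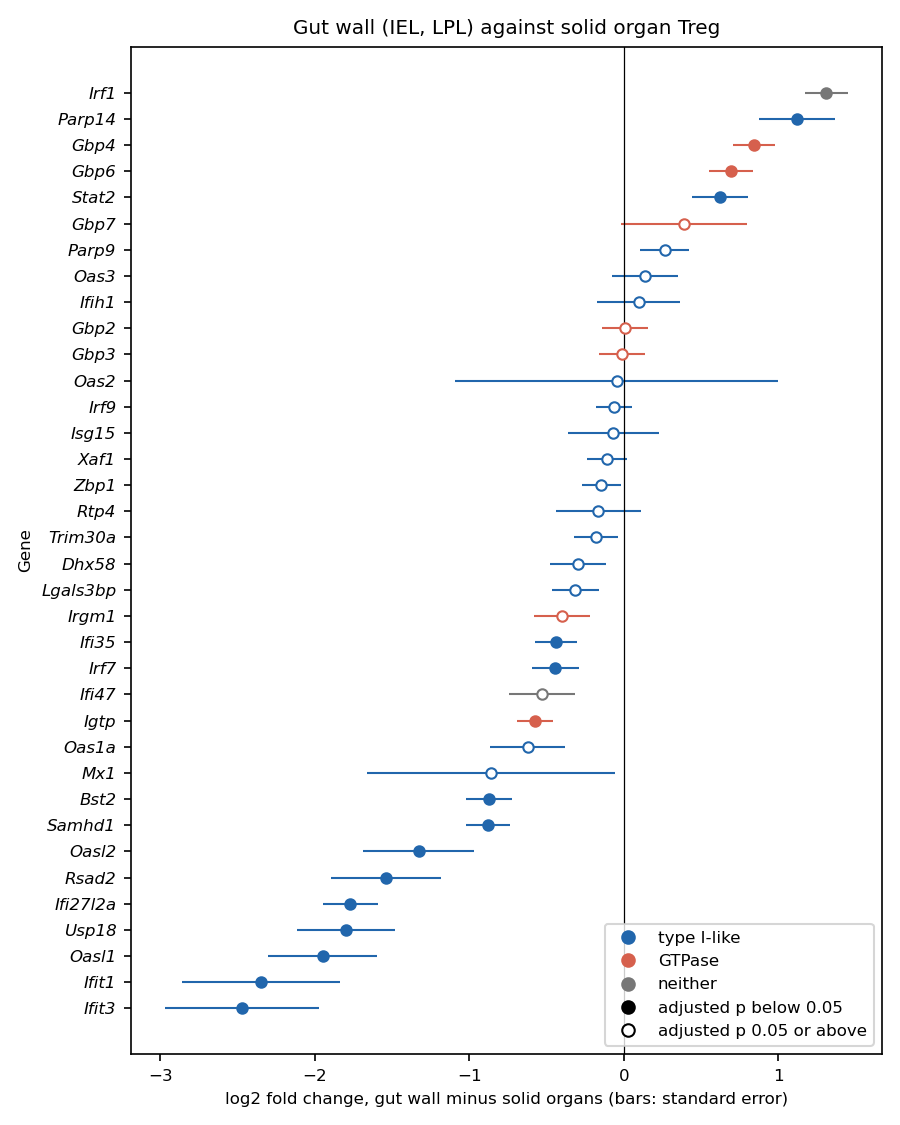
Log2 fold change of 36 members between Treg of the gut wall (IEL and LPL, 6 libraries) and of 4 solid organs (12 libraries), with its standard error. Ifi44 is left out because 5 of its 6 gut wall libraries had no count. Irf1 at 1.31 and Parp14 at 1.12 lie at the top, and type I-like effectors (blue, filled) fill the lower end down to Ifit3 at -2.47.

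Set against lymphoid Treg (blood, spleen and LN), Treg of the 6 tissues as a whole had more Isg15, Rsad2, Oas3 and Gbp3, and less Usp18, Ifi47, Ifi27l2a, Oasl2, Xaf1, Ifi44, Ifi35, Trim30a and Irgm1. These 13 of 37 calls (4 higher, 9 lower) compare with 21.8% of all genes (11.9% higher and 9.98% lower). The median log2 fold change was -0.06 over the members and 0.03 over all genes. This comparison and the comparisons of single sources use the same 9 lymphoid libraries as reference, so their results are not independent. Markers of other cells moved with it. Of 6 acinar markers 5 were called higher (2.34 to 74994 CPM summed in tissue and 1.54 to 12.1 CPM in lymphoid Treg), of 9 epithelial markers 4 were higher (11.6 to 1905 CPM and 5.94 to 35.4 CPM), and of 7 B and plasma cell markers 5 were lower (20.3 to 552 CPM and 27.1 to 241 CPM). Their part was not tested. With spleen alone as the reference 3 members were called, all lower (Usp18, Ifi27l2a and Xaf1), where 7.69% of all genes were called, and with counts summed per source, where the source is the replicate, no gene of any kind was called by edgeR (2753 genes had an unadjusted p below 0.05).

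Isg15 was higher and Usp18 lower in tissue than in lymphoid Treg. Isg15 lay at 18.5 to 49.6 CPM, median 22.5 in lymphoid Treg and 17.0 to 249.9 CPM, median 41.5 in tissue Treg (1.11 ± 0.25, adjusted p = 0.0024). Usp18 lay at 46.8 to 124 CPM, median 73.0 in lymphoid Treg and 7.81 to 95.2 CPM, median 27.2 in tissue Treg (-1.41 ± 0.23, adjusted p = 8.5e-05). Both pairs of ranges overlapped. Isg15 was not called with LN alone (0.58) or spleen alone (1.19) as the reference, while Usp18 was called with each of the 3 sources alone (-1.46 to blood, -1.21 to spleen and -1.56 to LN). Rsad2 was at 5.60 to 11.5 CPM, median 8.91 in lymphoid and 6.84 to 100.3 CPM, median 12.6 in tissue Treg (1.09 ± 0.28, adjusted p = 0.0069), and the kidney libraries gave the top of the tissue range. Its call was lost with each source alone as the reference (1.14 to blood, 0.93 to spleen and 1.20 to LN). Ifi47 was lower in tissues (142 to 805 CPM, median 217 against 287 to 915 CPM, median 489.6; -0.84 ± 0.17, adjusted p = 0.00074), and Gbp3 was higher (0.52 ± 0.12, adjusted p = 0.0041). With spleen alone as the reference Ifi47 was at -0.25, Irgm1 at -0.06, Oasl2 at -0.26, Ifi35 at -0.17 and Gbp3 at 0.52, none of them called. With LN alone Ifi47 was at -1.35 and called, Ifi35 at -0.73 and called, and Xaf1 at -0.16 and not called. Irgm1 was called lower against the 3 sources together (-0.44 ± 0.14), but not without blood Treg replicate 2 (-0.43), LN Treg replicate 7 (-0.42) or spleen Treg replicate 4 (-0.42). Oas3 was at 0.57 ± 0.18 and 0.35 without the libraries numbered 35 to 40, where it was not called, and its value was 0.13 with blood alone, 0.56 with spleen alone (neither called) and 1.01 with LN alone (called). Of the 30 fits without 1 library, 9 lost the call of Oas3 (0.48 to 0.63), 15 that of Oasl2 (-0.78 ± 0.27; -0.96 to -0.65) and 7 that of Trim30a (-0.34 ± 0.11; -0.40 to -0.29). Trim30a was also not called without a filter on low counts or with any of the 3 sources alone as the reference. Irf7, Irf9, Stat2 and Irf1 were not called, nor were the sensors Ifih1 and Dhx58.

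Kidney Treg held the highest levels of Isg15, Ifit1 and Rsad2 of any source, in 2 of the 3 libraries. Replicates 1, 3 and 5 had 45.2, 249.9 and 201 CPM of Isg15, 39.8, 551 and 417 CPM of Ifit1 and 9.55, 100.3 and 93.5 CPM of Rsad2. The lymphoid libraries lay at 18.5 to 49.6 CPM, median 22.5, 23.8 to 79.1 CPM, median 49.0 and 5.60 to 11.5 CPM, median 8.91. Replicates 3 and 5 were thus above every lymphoid library for all 3 genes, and replicate 1 lay within the lymphoid range. The log2 fold changes were 2.71 ± 0.35, adjusted p = 8.6e-06 for Isg15, 2.78 ± 0.55, adjusted p = 0.0011 for Ifit1 and 2.96 ± 0.40, adjusted p = 1.2e-05 for Rsad2, and all 3 calls held without any 1 library. Ifih1 was higher as well, with 28.4, 98.5 and 98.2 CPM (1.17 ± 0.34, adjusted p = 0.018), but not without replicate 3 (0.92) or replicate 5 (0.92).

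The same 2 kidney libraries carried more transcripts of monocytes and macrophages. The 11 monocyte and macrophage markers summed to 352 and 467 CPM in replicates 3 and 5 and to 44.1 CPM in replicate 1, the library with the most kidney tubule marker counts, and 8 of 11 were called higher in kidney than in lymphoid Treg. The 5 plasmacytoid dendritic cell markers, 4 of them called higher, did not follow Isg15: they summed to 401, 62.6 and 154 CPM in replicates 1, 3 and 5. Kidney Tconv held 819 CPM of the monocyte and macrophage markers with 109 CPM of Isg15, 131 of Ifit1 and 45.8 of Rsad2. In lung Treg replicate 5 and pancreas Treg replicate 5 the monocyte and macrophage markers were higher still (1527 and 912 CPM), with Isg15 at 28.8 and 26.2 CPM, Ifit1 at 83.6 and 28.9 CPM and Rsad2 at 16.1 and 9.46 CPM. Of these values, Ifit1 and Rsad2 in the lung library lay above every lymphoid library. Lung Treg replicate 6, with 471 CPM of the monocyte and macrophage markers, held 40.9 CPM of Isg15, 26.8 of Ifit1 and 39.8 of Rsad2, the last also above every lymphoid library. The part of these cells in the kidney result was not tested.

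Of all members, 11 were called in kidney against lymphoid Treg (6 higher, 5 lower), where 16.4% of all genes were called (12.2% higher and 4.26% lower). Leaving out kidney Treg replicate 3 reduced the count to 6 (9.37% of all genes), and leaving out replicate 5 reduced it to 4 (8.31%). Without a filter on low counts it was 7 (9.58%), and Usp18, Xaf1, Ifi35 and Gbp6 were not called. Gbp3 was higher (124, 161 and 194 CPM; 0.78 ± 0.19), without its call when replicate 5 was left out (0.60). Gbp6 was called at 0.57 ± 0.19, a call lost in 20 of the 30 fits without 1 library and without the libraries numbered 35 to 40 (0.49). Ifi47 was lower in all 3 libraries than in any lymphoid library (238, 167 and 151 CPM against 287 to 915 CPM, median 489.6; -1.50 ± 0.31, adjusted p = 0.0015). Usp18, at 45.7, 25.7 and 12.9 CPM, and Irgm1, at 114, 131 and 98.3 CPM, were also below every lymphoid library (-1.43 ± 0.42 and -0.83 ± 0.25). Usp18 lost its call without kidney replicate 3 (-1.39) or 5 (-1.10), and Irgm1 without replicate 1 (-0.83) or 5 (-0.75). Xaf1, a partner of an inhibitor of cell death, and Ifi35 made up the lower calls at -0.63 ± 0.18 and -0.56 ± 0.18. Both also failed without kidney replicate 3 (-0.65 and -0.59) or 5 (-0.46 and -0.53). Ifi35 was not called in 8 of the 30 such fits or without the libraries numbered 35 to 40 (-0.36).

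**Figure D4:**
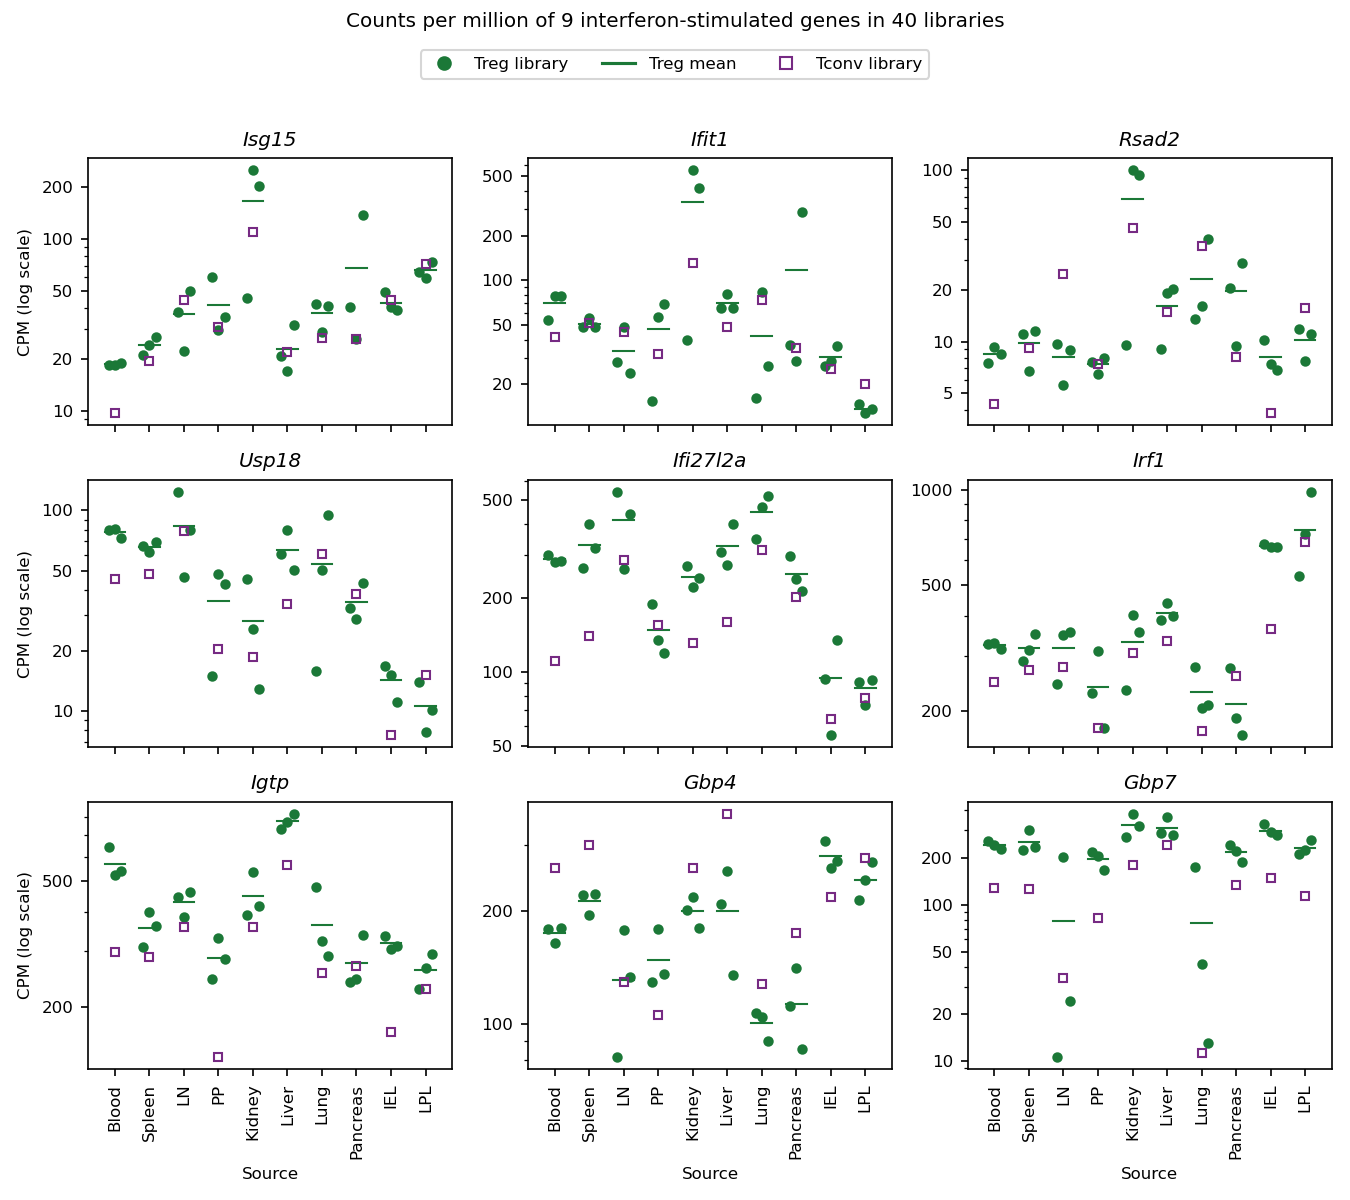
CPM of 9 members on a log axis in every library, by source. Circles are Treg libraries, bars their means and open squares the Tconv library. Isg15, Ifit1 and Rsad2 peak in 2 kidney Treg libraries (Isg15 at 249.9 and 201 CPM), Irf1 in IEL and LPL, Igtp in liver (732 to 819 CPM), and Gbp7 drops to 10.7 to 41.8 CPM in 4 LN and lung Treg libraries.

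Liver Treg had the highest mean levels of Igtp, Gbp2 and Irgm1 of the 10 sources. Igtp held 732, 774 and 819 CPM and Gbp2 247, 255 and 263 CPM, each above every lymphoid library (310.2 to 643 CPM, median 447 and 66.0 to 239 CPM, median 121). The log2 fold changes were 0.81 ± 0.15, adjusted p = 0.0058 and 0.97 ± 0.19, adjusted p = 0.0094. Oas3, at 64.2, 125 and 94.1 CPM against 21.2 to 57.2 CPM, median 47.5, was higher too (1.23 ± 0.27, adjusted p = 0.02). These 3 members were called of 37, all higher, where 1.12% of all genes were called (0.955% higher and 0.162% lower). All 7 GTPases had positive values, with a median of 0.72 against 0.0087 over all genes and 0.17 over the type I-like genes. Irgm1, a regulator of the other GTPases, held 315, 285 and 361 CPM and was at 0.65 ± 0.23, adjusted p = 0.21, and Ifi47 held 763, 695 and 805 CPM and was at 0.53 ± 0.27, adjusted p = 0.44. Of 4 hepatocyte markers 3 had enough counts to be tested and all 3 were called higher, with sums of 77.4, 13.8 and 97.2 CPM in liver replicates 1, 3 and 4 and 0 to 0.0473 CPM in lymphoid Treg. No marker of the monocyte and macrophage list was called. The part of hepatocyte RNA in the liver values was not tested.

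The liver calls depended on single libraries. Without liver Treg replicate 3 or replicate 4, Igtp alone was called, and Gbp2 was at 0.95 and 0.97. Without LN Treg replicate 6, 7 members were called (2.26% of all genes), and 5 without lung Treg replicate 1 (1.5%). Without the libraries numbered 35 to 40, 6 were called (1.04% of all genes) and all were higher (Oas1a, Samhd1, Irgm1, Igtp, Gbp2 and Ifi47), and Oas3 at 1.10 was not. Oas3 also lost its call without blood Treg replicate 5 (1.22), LN Treg replicate 7 (1.16), or liver Treg replicate 3 (0.95) or 4 (1.25). The liver Tconv library held 564 CPM of Igtp, 155 of Gbp2 and 182 of Irgm1. Among related GTPases outside the list, Irgm2 (191 against 104 CPM; 0.91 ± 0.17) and Iigp1 (215 against 126 CPM; 0.78 ± 0.17) were higher in liver Treg, as were H2-D1 and Tapbp, which serve the display of peptides on MHC class I (0.60 ± 0.12 and 0.49 ± 0.12). These genes come from lists of 9 further GTPases and 12 MHC class I and immunoproteasome genes, and 0.955% of all genes were called higher. Irgm2 overlaps Igtp on the same strand, so its value is not separate from that of Igtp to the extent that reads were shared.

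In lung and LN the values of several members split between libraries of 1 source. Gbp7 held 200.3, 24.1 and 10.7 CPM in LN replicates 6, 7 and 10 and 174, 41.8 and 13.0 CPM in lung replicates 1, 5 and 6. The 4 low values belong to the libraries numbered 35 to 40, and the other 26 Treg libraries all lay at 167 to 381 CPM. The LN and lung Tconv libraries of that set were low as well (34.0 and 11.3 CPM, against 82.7 to 241 CPM in the other 8). Parp14 (34.9 to 58.1 CPM against 60.5 to 265 CPM) and Gbp2 (62.8 to 77.5 CPM against 82.1 to 263 CPM) were also below every other Treg library. Ifi27l2a (440.1 to 540.3 CPM against 55.2 to 400.3 CPM) and Rtp4, a chaperone of membrane receptors (77.9 to 119.9 CPM against 12.2 to 73.7 CPM), were above every other. The annotated length is 5614 bases for Gbp7, 9306 for Parp14 and 2516 for Gbp2, the low ones, and 463 for Ifi27l2a and 2131 for Rtp4, the high ones, with a median of 3527 over the genes tested. The part of library quality or length in these values was not tested.

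Against lymphoid Treg, 7 members were called in lung (3 higher, 4 lower), against 11.5% of all genes (8.64% higher and 2.85% lower), and 12 were called without the libraries numbered 35 to 40 (2 higher, 10 lower), where 9.03% of all genes were called. In that alternative lung is 1 library, assumed to vary like the other groups, and its values are no separate support. Irf7 was higher (159, 118 and 114 CPM; 0.69 ± 0.19, adjusted p = 0.023), but not without lung Treg replicate 1 (0.50), blood Treg replicate 2 (0.64) or 5 (0.63), or LN Treg replicate 7 (0.62), and it was at 1.06 with lung replicate 1 alone. Samhd1 reached 1346 CPM in replicate 1 against 673 and 600.1 CPM in replicates 5 and 6 (0.65 ± 0.18), and without replicate 1 it was at 0.18 and not called, against 1.13 with replicate 1 alone. Parp14 was lower (60.5, 42.2 and 53.8 CPM; -1.51 ± 0.37, adjusted p = 0.0098) and stayed called except without replicate 5 (-1.38). Rsad2 was at 1.40 ± 0.41 and lost its call without replicate 6 (0.73), blood Treg replicate 2 (1.34) or 5 (1.37) or spleen Treg replicate 3 (1.33), or without the libraries numbered 35 to 40 (0.76). Zbp1, a sensor of unusual nucleic acid forms, was lower (-0.60 ± 0.17), a call lost without lung replicate 1 (-0.43), and it was at -1.22 with that library alone. Gbp4 and Gbp6 were lower (-0.76 ± 0.20 and -0.80 ± 0.21) and neither was called without replicate 6 (-0.72 and -0.77) or without the libraries numbered 35 to 40 (-0.85 and -0.67), nor was Gbp6 without replicate 5 (-0.74). The count fell to 4 without lung Treg replicate 6, where 8.42% of all genes were called. The monocyte and macrophage markers summed to 17.3, 1527 and 471 CPM in lung replicates 1, 5 and 6, with 2 of 11 called higher, and 2 of 9 epithelial markers were higher. Their part was not tested.

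In pancreas Treg 7 members were called (1 higher, 6 lower), where 9.95% of all genes were called (7.64% higher and 2.31% lower). Isg15 was the higher one, and it rested on replicate 6: replicates 1, 5 and 6 held 40.1, 26.2 and 137 CPM. Its log2 fold change was 1.41 ± 0.37, adjusted p = 0.014, and 0.42 without replicate 6, where it was not called. Ifit1 followed with 36.9, 28.9 and 288 CPM. All 3 pancreas libraries held acinar markers, at 14592, 13302 and 74994 CPM summed, against 1.54 to 12.1 CPM in lymphoid Treg, and 6 of 6 were called higher. The monocyte and macrophage markers, 8 of 11 called higher, summed to 208, 912 and 46.3 CPM, and 7 of 9 epithelial markers were higher. The 5 plasmacytoid dendritic cell markers, 1 called higher, summed to 284, 216 and 1038 CPM. Replicate 6, the highest in Isg15, was thus highest for acinar and plasmacytoid dendritic cell markers, and replicate 5 for monocyte and macrophage markers. Their part in the results was not tested. Ifi47 was below every lymphoid library (210.3, 217 and 164 CPM; -1.40 ± 0.31, adjusted p = 0.0042) and stayed called without any 1 library. Igtp, Irgm1, Trim30a, Ifi35 and Xaf1 were lower as well (-0.68 ± 0.16, -0.87 ± 0.25, -0.71 ± 0.20, -0.71 ± 0.18 and -0.56 ± 0.18). Without pancreas replicate 5 none of these 5 was called (-0.62, -0.87, -0.70, -0.71 and -0.46). The call of Xaf1 was lost in 24 of the 30 fits without 1 library (-0.63 to -0.46), with DESeq2 size factors, without a filter on low counts and without the libraries numbered 35 to 40. Trim30a, Ifi35 and Irgm1 were also not called without replicate 6, Igtp and Irgm1 without replicate 1, and Irgm1 without LN Treg replicate 7. The count was 2 without pancreas replicate 5 (5.26% of all genes) and 3 without replicate 6 (6.46%).

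PP Treg, from the lymphoid follicles of the gut, differed from lymphoid Treg in 2 members, both lower, where 3.57% of all genes were called (2.94% higher and 0.625% lower). Ifi27l2a held 188, 134 and 119.5 CPM, below every lymphoid library (-1.19 ± 0.24, adjusted p = 0.0029). Igtp held 245, 331 and 283 CPM (-0.62 ± 0.16, adjusted p = 0.025) and lost its call without PP replicate 1 (-0.49) or 3 (-0.61). The count was 1 without either of these libraries (1.82% and 2.12% of all genes), 5 without lung Treg replicate 1 (4.53%), and 4, all lower, without the libraries numbered 35 to 40 (2.8%). Of 9 epithelial markers 3 were called higher in PP, and of 5 CD8 and NK cell markers 2. Their part was not tested.

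Against lymphoid Treg, 12 members were called in IEL (4 higher, 8 lower), where 21.2% of all genes were called (13.5% higher and 7.77% lower). In LPL 20 were called (5 higher, 15 lower), where 27.1% of all genes were called (17.4% higher and 9.7% lower). Irf1 was higher in both (1.07 ± 0.18 in IEL and 1.24 ± 0.18 in LPL), as were Gbp4 (0.74 ± 0.18 and 0.53 ± 0.18) and Gbp6 (0.84 ± 0.19 and 0.60 ± 0.19). The LPL calls of Gbp4 and Gbp6 were lost in 17 and 3 of the 30 fits without 1 library and without the libraries numbered 35 to 40 (0.38 and 0.52). Usp18 (-2.39 ± 0.45 and -2.83 ± 0.47) and Ifi27l2a (-1.84 ± 0.25 and -1.98 ± 0.25) were lower in both and stayed so without any 1 library. Isg15 was higher in LPL, with 64.5, 59.3 and 73.3 CPM against 18.5 to 49.6 CPM, median 22.5 (1.37 ± 0.37, adjusted p = 0.0065). The effectors Oasl2, Oasl1 and Ifit3 were lower in LPL (-2.26 ± 0.52, -2.09 ± 0.49 and -2.79 ± 0.70), and Igtp, Irgm1 and Ifi47 were lower there too (-0.75 ± 0.16, -1.08 ± 0.25 and -1.52 ± 0.31). The IEL count was 7 without IEL replicate 2 (12.9% of all genes), and the LPL count 13 without LPL replicate 2 (18.3%). All 9 epithelial markers were called higher in both compartments, with sums of 78.1, 87.7 and 736 CPM in IEL and 1905, 243 and 90.2 CPM in LPL, against 5.94 to 35.4 CPM in lymphoid Treg. The B and plasma cell markers summed to 39.7, 42.6 and 34.5 CPM in IEL and 552, 351 and 278 CPM in LPL, against 27.1 to 241 CPM in lymphoid Treg. Of 7 of them 3 were called lower in IEL and 1 higher in LPL, where all 3 sums lay above the lymphoid range. The monocyte and macrophage markers summed to 0.466 to 6.87 CPM in the 6 gut wall libraries, below the lymphoid range of 9.78 to 38.2 CPM, with 3 of 11 called lower in IEL and 1 in LPL. The part of these cells was not tested.

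In Tconv, with 1 library per source and the source as replicate, no member and no gene was called between the 6 tissues and the 3 lymphoid sources by edgeR. At an unadjusted p below 0.05, 2119 of 14453 genes and 5 members passed, and DESeq2 called 1085 genes and 2 members (Oasl1 and Mx1). The 5 members were Oasl1 (-1.43 ± 0.39), Oasl2 (-1.28 ± 0.46), Oas2 (-2.98 ± 1.07), Gbp3 (1.16 ± 0.43) and Mx1 (2.90 ± 1.20). Oas2 stood at 18.4 and 22.7 CPM in blood and spleen Tconv, while the other 8 Tconv libraries held 0 to 6.08 CPM. The tissue effect itself differed between Treg and Tconv for no member in edgeR, where 1.75% of 14983 genes were called (0.514% higher and 1.23% lower). In that test Oas2, Oasl1 and Xaf1 had an unadjusted p below 0.05, with adjusted p of 0.34, 0.33 and 0.29 (edgeR), and are not read as differences. DESeq2 called 1 member (Oas2) and 601 genes. The residual spread in the test of the tissue effect came from the Treg libraries alone.

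The 2 classes did not move as 1 block across sources. Per library, the mean log2(CPM + 1) of the 28 type I-like genes and of the 7 GTPases were taken. Only their change between libraries is read, and the levels of the 2 classes are not compared with each other. Their difference was lowest in the gut wall at -2.27 ± 0.08 in IEL and -2.29 ± 0.21 in LPL Treg (SD, n = 3), and -2.09 ± 0.11 in liver. It was -1.80 ± 0.13 in blood, -1.68 ± 0.11 in spleen, -1.82 ± 0.17 in PP, -1.69 ± 0.25 in kidney and -1.41 ± 0.20 in pancreas. In LN and lung, at -1.20 ± 0.58 and -1.11 ± 0.82, the spread between libraries was wider than the gaps between most sources. The gut wall was at -0.71 relative to the solid organs, as a mean of source means, and at -0.47 without the libraries numbered 35 to 40. In that alternative lung is replicate 1 alone, at -2.04, against -0.74 and -0.54 in lung replicates 5 and 6. In liver the GTPases were high (mean 7.79 ± 0.07) with type I-like genes at 5.70 ± 0.11. In the gut wall the type I-like genes were low (5.12 ± 0.06 in IEL and 4.84 ± 0.10 in LPL) with GTPases at 7.40 ± 0.08 and 7.13 ± 0.20. Low type I-like means were also found in PP Treg (5.07 ± 0.18, with GTPases at 6.89 ± 0.10) and in lung Treg replicate 1 (4.75). Among the 10 sources of Treg, the summed CPM of all members was highest in liver (6447 ± 196). It was lowest in PP (3624 ± 345), close to pancreas (3731 ± 212). As a share of counts without TMM factors, pancreas was lowest (mean 0.352%, against 0.373% in PP).

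**Figure D5:**
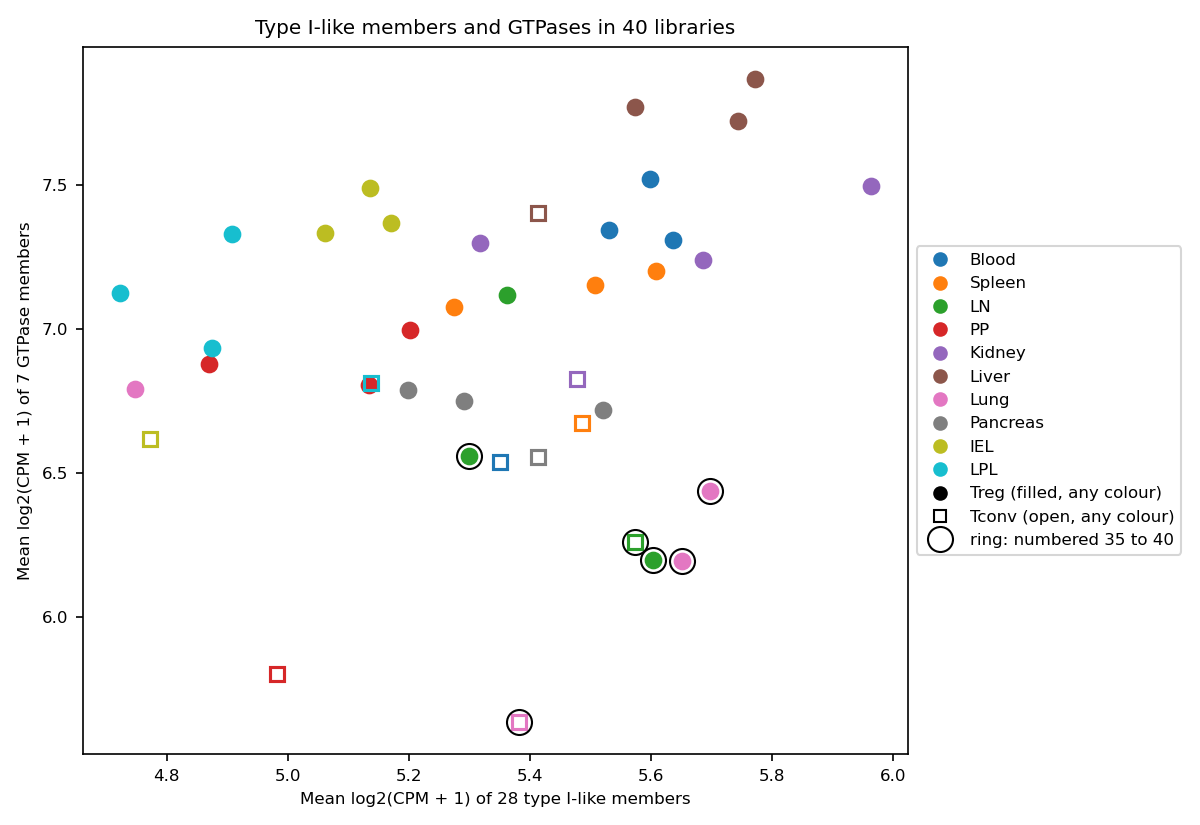
Mean log2(CPM + 1) of the 28 type I-like genes (x axis) against that of the 7 GTPases (y axis) in 40 libraries, coloured by source. Filled circles are Treg, open squares Tconv, and rings mark the 6 libraries numbered 35 to 40. Liver Treg lie at the top, and the ringed libraries in the lower part of the plot. IEL, LPL and PP Treg and lung Treg replicate 1 lie to the left.

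The receptors and kinases of the pathway were read from a wider list. Ifngr1, the ligand-binding chain of the interferon-gamma receptor, was higher in Treg than in Tconv (1.10 ± 0.22) and higher in tissue than in lymphoid Treg (1553 against 436 CPM; 1.79 ± 0.24). Of 8 receptors and kinases tested, 4 were higher in Treg than in Tconv (Il10rb, Ifngr1, Ifnar1 and Ifnar2) and none lower, where 9.88% and 7.28% of all genes were. In the gut wall Ifnar1, Ifngr2 and Il10rb were lower than in solid organs (-0.87 ± 0.23, -1.11 ± 0.33 and -0.48 ± 0.12) and the kinase Jak2 was higher (1.03 ± 0.29), 3 and 1 of the 8, where 10.6% and 13% of all genes were lower and higher. Of 10 interferon ligands only Ifng had enough counts to be tested. It was lower in Treg than in Tconv (14.2 against 68.6 CPM; -2.21 ± 0.46), higher in tissue than in lymphoid Treg (2.48 ± 0.38) and at its largest difference in kidney (75.3 against 2.08 CPM; 5.28 ± 0.51). In gut wall against solid organ Treg it was called higher on the log2 scale (1.22 ± 0.39), where sources are averaged as logs, while its mean CPM was lower (19.0 against 24.4 CPM), with kidney holding most of the solid organ mean, so its direction there depends on the averaging. The CD8 and NK cell markers, whose cells are known to make much Ifng, were lower in Treg than in Tconv too (3 of 5 called; medians of 32.0 and 87.4 CPM summed), and 1 of 5 was higher in tissue Treg. Their part in the Ifng values was not tested.

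Among 10 signal transducers, 3 were higher and 1 lower in Treg than in Tconv (9.88% and 7.28% of all genes). Irf5 rose by 1.61 ± 0.25 and Irf4 by 0.95 ± 0.30, and Ptpn6, a phosphatase that damps cytokine signals, fell by 0.64 ± 0.12 on the log2 scale. In tissue Treg 5 were higher and 3 lower than in lymphoid Treg (11.9% and 9.98% of all genes), with Irf4 at 1.03 ± 0.20 and Socs1, an inhibitor of the receptor kinases, at -0.68 ± 0.14. None of the 10 was called between gut wall and solid organs. Of 12 MHC class I and immunoproteasome genes, which interferons also induce, 9 were lower in the gut wall and none higher (10.6% and 13% of all genes), with Psmb8 at 189.6 against 439.9 CPM (-1.18 ± 0.17) and Psmb9 at -0.86 ± 0.19. Of 35 further type I-like genes, 3 were higher and 11 lower in the gut wall (13% and 10.6% of all genes), and 1 was higher and 10 lower in tissue than in lymphoid Treg (11.9% and 9.98%). In both comparisons the share of these genes called higher was below that of all genes. Slfn1, a regulator of T cell growth, was lower in both (-0.66 ± 0.17 and -1.20 ± 0.13), while Oas1b was higher in the gut wall (13.2 against 3.12 CPM; 2.10 ± 0.43). Of 9 further GTPases 3 were higher in Treg than in Tconv, where 9.88% of all genes were (Gbp5 at 1.10 ± 0.13, Gbp10 at 1.36 ± 0.21 and Iigp1 at 0.93 ± 0.13), and Iigp1 was lower in tissue Treg (-0.63 ± 0.11).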

How the data were processed

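The authors deposited 1 table of raw read counts per gene, with 1 column for each of 40 libraries made with a 3' mRNA kit. The submitters' processing notes name FastQC, Trim Galore, STAR, featureCounts, MultiQC and DESeq2 and the build mm10, and the strand setting and annotation release are not given in the sources used here. Libraries were grouped by their labels into 20 groups of source and cell type. From the counts, edgeR 4.0.16 (R 4.3.3) was run on all genes with its filter on low counts, TMM factors and the robust quasi-likelihood test, with Benjamini-Hochberg adjustment over all genes tested and a threshold of 0.05. Treg against Tconv held the source fixed. Comparisons among Treg used 1 fit of 30 libraries with a mean per source, and groups of sources were compared as unweighted means of sources. Values after ± are SE for log2 fold changes and SD for levels. The procedure was tested on simulated counts. DESeq2 1.42.0, other scalings, no filter, single references, sums per source, a replicate block and leaving out each library were alternatives, and leaving out the libraries numbered 35 to 40 was added after seeing the data. The members, classes and lists were chosen with earlier results of these data known. Members named with values in each comparison were those with the smallest p in their role and those at either end of the levels, and others named were chosen after their values were seen. From the pathway lists, up to 4 genes with the smallest p were named. A signal transducer of these lists is not reported here. Figures were drawn with matplotlib 3.10.9. Total counts of 12197980 to 28823493 per library limit what can be read for the lowest members.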

Additional observations from a re-analysis of the deposited data

Results flagged for a closer look

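For the 37 members and their summed level, 114 sets of libraries were searched for a highest or lowest library far from the rest, and 8 were found. Chance gives about 1 in 20, and the sets join libraries of different sources, so a far library can be a source that differs. Among the 10 Tconv libraries, Irf1 stood apart in LPL (684.92 CPM), Ifit1 and Mx1 in kidney (131.11 and 27.096 CPM), Ifi44 in LN (19.746 CPM) and Igtp in liver (564.39 CPM). Among Treg of blood, spleen and LN, Usp18 was far above the rest in LN replicate 10 (123.52 CPM). Among Treg of IEL and LPL, Oasl1 was high in IEL replicate 2 (6.918 CPM) and Ifi44 in LPL replicate 1 (0.99297 CPM).

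The tissue effect differed between Treg and Tconv for 5 genes of the wider pathway, by edgeR's test of the difference itself. They were 1 of 8 receptors and kinases tested, 3 of 10 signal transducers and the 1 interferon ligand tested, with none in the other 4 lists of the pathway, against 1.75% of 14983 genes (0.514% higher and 1.23% lower). The difference, Treg minus Tconv on the log2 scale, was -0.84534 for Ifnar2 (adjusted p = 0.0033), -1.6113 for Socs1 (adjusted p = 0.0030), -2.2043 for Irf8 (adjusted p = 0.0037), -1.7253 for Irf5 (adjusted p = 0.027) and -3.9349 for Ifng (adjusted p = 0.0068). Tconv had 1 library per source, so the residual spread came from Treg. Some Tconv libraries held more markers of other cells than Treg of their source. Kidney Tconv held 819 CPM of monocyte and macrophage markers (Treg 44.1 to 467). LPL Tconv held 1715 CPM of B and plasma cell markers (Treg 278 to 552). IEL and liver Tconv held 282 and 201 CPM of CD8 and NK cell markers (Treg 45.1 to 65.6 and 24.6 to 42.8). LPL and IEL Tconv held 471 and 226 CPM of plasmacytoid dendritic cell markers (Treg 38.2 to 60.0 and 37.3 to 46.5). In blood and spleen that sum was lower in Tconv (53.2 and 61.4 CPM) than in Treg (74.7 to 94.1 and 83.7 to 97.5). IEL Tconv held 1312 CPM of epithelial markers (Treg 78.1 to 736). In lung and pancreas the monocyte and macrophage sum of Tconv lay within that of Treg. The part of these cells was not tested.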

How the results depend on the processing

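Of 103 calls of a member in a comparison with a direction, 31 held in every alternative run, 47 were lost when some 1 library was left out, 65 were lost under some other setting, and 0 changed sign. DESeq2 called 5 members in liver (2.91% of all genes), 12 in pancreas (12.5%), 6 in PP (6.12%), 2 between tissue and lymphoid Tconv (7.58%) and 1 for the tissue effect in Treg against Tconv (4.01%). Without a filter on low counts, 7 were called in kidney. Tissue against lymphoid Treg gave 3 with spleen alone as reference and 0 with counts summed per source (edgeR, 2753 genes at an unadjusted p below 0.05). Without the libraries numbered 35 to 40, an alternative chosen after seeing the data, 6 were called in liver, 12 in lung and 4 in PP. Leaving out each library in turn gave 8 to 11 members for Treg against Tconv, 27 to 34 for any source, 10 to 18 for tissue, 16 to 21 for gut wall, 4 to 14 for kidney, 1 to 7 for liver, 4 to 10 for lung, 2 to 10 for pancreas, 7 to 16 for IEL, 13 to 23 for LPL and 1 to 5 for PP. The difference between classes ran from -0.83 to -0.64. The cause of these shifts was not tested, apart from the smaller number of libraries. Depth limits Oas2, Mx1 and Ifi44, which had libraries with no count.

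The replicate numbers are not stated to pair libraries. Deviations of same-numbered libraries correlated at -0.25 to 0.25 in 6 pairs of Treg and Tconv, with 2 over 0.1. In 58 pairs of Treg libraries they correlated at -0.47 to 0.19, with 6 over 0.1. Libraries of different numbers were not compared in this way, so these values cannot decide whether the numbers pair libraries. The numbers were not used as pairs in the main fits. With the replicate block, 4 members were called for Treg against Tconv, 5 for tissue, 15 for gut wall (without Stat2 at 0.36, Rsad2 at -1.20 and Ifi35 at -0.38), 4 for kidney, 0 for liver (edgeR, 8 genes called and 1602 at an unadjusted p below 0.05), 1 for pancreas, 6 for IEL, 11 for LPL and 0 for PP (edgeR, 152 genes called and 1821 at an unadjusted p below 0.05). For Treg against Tconv the block joined source and number. Only the 6 same-numbered pairs then carried the difference, so its count rests on fewer libraries.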
